A study of Homo sapiens with 8 samples.

Results

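The Mediator kinase module was examined at 7 genes: CDK8 and CDK19, CCNC, MED12 and MED12L, and MED13 and MED13L. Its sites were the accessible regions whose peak summit lay in the gene body of a member or within 50 kb of one of its transcription start sites. Of 43654 regions merged from the 4 peak lists, 58 met this rule, built from 157 peaks (35 and 48 in the PBS libraries, 36 and 38 in the SCF libraries). Chromatin accessibility had been profiled by ATAC-seq, in which the Tn5 transposase cuts and tags open DNA, in HUDEP-2, a single immortalized line of erythroid progenitors derived from human cord blood. All 4 libraries came from HUDEP-2 carrying a control guide RNA (sgControl). The cells were held without growth factors for 5 h before they received stem cell factor (SCF, 50 ng/ml), the Kit receptor ligand, or PBS for 1 h. Each treatment had 2 libraries of 50000 cells, described by the study as biological duplicates. The comparison asks which sites of the module's genes become more or less accessible when Kit is activated, and whether the intronic CDK8 element of the study can be found among them. The 4 samples with a guide against EGR1 were not analysed here.

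Mediator is a large protein complex that carries signals from transcription factors at enhancers to RNA polymerase II at promoters. Its kinase module binds the core complex reversibly and holds a cyclin-dependent kinase (CDK8 or its paralogue CDK19), the kinase's partner cyclin C (CCNC), MED12, which activates the kinase, and MED13, which links the module to core Mediator. MED12L and MED13L are the vertebrate paralogues of MED12 and MED13. CDK8 and CDK19 phosphorylate transcription factors and can raise or lower the response of signal-induced genes.

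The sequences below are the 201 bases centered on the summits of the sites on which the results turn, read on the forward strand of GRCh37. Capitals mark the words searched on both strands: TGANTCA for AP-1, GCGTGGG for EGR, AGATAA or TGATAA for GATA factors, CAGNTG for an E-box and TGACGTCA for the cAMP response element. The first 3 are shown because they are the highest-ranked sites of CDK8 and its only site that was ranked lower with SCF by the 10-point rule defined below.
CDK8, −6.33 kb from the start site (chr13:26821838-26822038): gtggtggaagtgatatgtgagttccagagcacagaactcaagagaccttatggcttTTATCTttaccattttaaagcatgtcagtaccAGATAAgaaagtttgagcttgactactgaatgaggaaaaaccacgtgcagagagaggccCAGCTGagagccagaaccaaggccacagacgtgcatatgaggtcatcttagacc
CDK8 promoter (chr13:26828022-26828222): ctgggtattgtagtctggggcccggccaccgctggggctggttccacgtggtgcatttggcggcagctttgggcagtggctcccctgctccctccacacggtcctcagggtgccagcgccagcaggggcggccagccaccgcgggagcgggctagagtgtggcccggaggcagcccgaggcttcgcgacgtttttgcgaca
CDK8, +159.41 kb (chr13:26987579-26987779): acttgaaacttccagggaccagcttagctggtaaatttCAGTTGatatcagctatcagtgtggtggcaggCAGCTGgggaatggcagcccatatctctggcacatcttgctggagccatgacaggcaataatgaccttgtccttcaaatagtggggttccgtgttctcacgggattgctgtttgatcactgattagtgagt
The next 2 are the CDK19 site that came nearest to a rank gain with SCF and the CCNC site that lost rank.
CDK19, +132.73 kb (chr6:111003838-111004038): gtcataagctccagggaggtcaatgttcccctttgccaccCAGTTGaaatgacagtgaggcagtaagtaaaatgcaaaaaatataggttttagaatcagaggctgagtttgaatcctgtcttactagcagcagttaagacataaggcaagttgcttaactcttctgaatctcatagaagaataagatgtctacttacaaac
CCNC, −35.03 kb (chr6:100051465-100051665): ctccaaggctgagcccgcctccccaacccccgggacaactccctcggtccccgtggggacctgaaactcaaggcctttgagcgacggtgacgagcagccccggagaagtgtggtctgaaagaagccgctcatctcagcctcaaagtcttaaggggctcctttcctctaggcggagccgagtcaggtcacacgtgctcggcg
The last 4 are the 3 sites with the AP-1 word and a strong intronic site of MED13L with a GATA word.
CDK19, +186.92 kb (chr6:110949650-110949850): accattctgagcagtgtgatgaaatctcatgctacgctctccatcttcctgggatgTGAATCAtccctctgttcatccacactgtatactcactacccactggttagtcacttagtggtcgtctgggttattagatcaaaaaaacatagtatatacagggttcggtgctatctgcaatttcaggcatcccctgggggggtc
CCNC, +34.31 kb (chr6:99982125-99982325): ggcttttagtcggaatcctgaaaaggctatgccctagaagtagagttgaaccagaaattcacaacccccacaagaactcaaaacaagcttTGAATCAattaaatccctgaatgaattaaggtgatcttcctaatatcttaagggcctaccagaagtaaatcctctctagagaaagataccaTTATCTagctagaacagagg
MED12, +63.59 kb (chrX:70401940-70402140): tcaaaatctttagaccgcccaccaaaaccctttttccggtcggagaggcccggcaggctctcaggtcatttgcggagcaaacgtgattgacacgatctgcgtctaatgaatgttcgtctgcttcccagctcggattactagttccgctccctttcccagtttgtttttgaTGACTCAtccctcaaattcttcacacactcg
MED13L, +80.45 kb (chr12:116634949-116635149): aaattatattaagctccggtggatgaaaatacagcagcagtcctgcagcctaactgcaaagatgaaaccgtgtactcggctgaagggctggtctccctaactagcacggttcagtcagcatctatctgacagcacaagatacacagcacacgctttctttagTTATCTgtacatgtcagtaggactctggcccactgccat

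Distances are counted from the canonical start site of the gene, positive in the direction of transcription. Each peak carries a fold enrichment (fragments piled up at its summit, relative to the background around it) and was given a percentile rank by it within its own list (100 is the highest). Ranks need no estimate of depth and were the main measure, but they shift with the number of weak peaks that a list holds. The pileup was recovered from the fold enrichment and the p-value. Its unit is called a fragment here, but the sources used do not give what the caller piled up. Libraries held 29269 to 33616 peaks. Read totals are unknown, and the depth recovered from the background was 0.843 to 1.42 times that of PBS replicate 1. PBS replicate 2 was the deepest library, and 48 of the 157 peaks were its own. A library listed a site only where its pileup over the local background passed the caller's threshold, so a site on higher background needed more. The lowest listed pileup of any site was 6, 7, 6 and 5 fragments in PBS replicates 1 and 2 and SCF replicates 1 and 2. The fixed marker list was checked at promoters. Of 10 erythroid genes, 8 had a promoter peak in all 4 libraries, ALAS2 had one in PBS replicate 2 alone and HBG1 had none, while 10 of 14 markers of other cell types had none. With 2 libraries per group, an exact permutation test cannot give a p-value below 0.333, so that counts are set beside the same count over all regions.

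Of these sites, 25 were listed in all 4 libraries, 6 in 3, 6 in 2 and 21 in 1. The share in all 4 was 43.1%, against 51.3% of all regions. The sites were spread unevenly over the genes. CCNC, whose gene body spans 26.4 kb, had 10 sites, or 8.39 per 100 kb of its window, and MED12 had 9, or 7.50 per 100 kb. CDK8 had 7 (2.85 per 100 kb), CDK19 had 9 (3.52), MED13 had 4 (1.91) and MED13L had 15 (3.60). MED12L, with the longest gene body of the 7 (352 kb), had 4 sites, or 0.977 per 100 kb, and none of these was listed in all 4 libraries. All 4 sites of MED13 were listed in every library, against 2 of 9 at CDK19. Windows around CCNC and MED12 also cover promoters of other genes, which are named where they occur.

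CDK8 (ENSG00000132964.13_13) lies on chromosome 13 (26828241 to 26995119 on GRCh37, plus strand). Its promoter site, at −0.14 kb, had percentile ranks of 86.9 and 86.3 in PBS replicates 1 and 2 and 90.6 and 94.1 in SCF replicates 1 and 2. PBS libraries had a mean rank of 86.6 ± 0.397 and SCF libraries one of 92.4 ± 2.43 (SD, n = 2). Both SCF ranks thus exceeded both PBS ranks, by 3.74 points at the nearest. The pileup behind these ranks was 104, 143, 94 and 97 fragments. Divided by the background of the library, it was 99.5, 95.3, 99.6 and 110, and the treatments nearly met, at 99.5 in PBS and 99.6 in SCF libraries.
A site at −6.33 kb, between genes, was ranked as high as the promoter. Its ranks were 84.8, 94.7, 87.6 and 94.3 in the same order, with pileups of 38, 61, 39 and 51 fragments. Replicates differed more than treatments at this site. It held a GATA word on each strand, centered 10 and 42 bp from the summit, and an E-box word 50 bp from it. The site at −32.13 kb is the promoter of the neighboring gene RNF6, which codes for a ubiquitin ligase. Its ranks were 82.3 and 79.9 in PBS and 72.2 and 74.5 in SCF libraries. A weaker site at −26.56 kb was listed in 3 libraries, with ranks of 22.0 to 37.5.

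Downstream of the promoter, CDK8 was sparse. The study places a Kit-responsive element in an intron of CDK8, the first by its own annotation. The first intron of the canonical transcript (chr13:26828907-26911703, 82.8 kb) held 0 peak summits in each of the 4 lists, and no first intron of another CDK8 transcript held an SCF peak more than 1 kb from the canonical start. The stretch without any listed peak ran for 87.9 kb, from 26829137 to 26917008. Of 387 canonical first introns of 60 to 120 kb in genes whose promoter was listed in all 4 libraries, 117 (30.2%) held no summit, a count made after the CDK8 value was seen. The 68.8-kb first intron of CDK19 held 3 summits over the 4 lists. Its separate sites, at +64.57 kb (PBS replicate 2, 8 fragments) and +59.76 kb (SCF replicate 2, 6 fragments), were each listed in 1 library. The element was therefore not located among the peaks used here. An element whose pileup over the local background missed the caller's threshold would not appear in these lists. The methods of the study name build hg38 and the lists name hg19, and coordinates were not converted between them.
The nearest intronic site, at +88.88 kb in intron 2, was listed in PBS replicate 1 alone, with a rank of 30.0 and a pileup of 10 fragments. A site at +159.41 kb (chr13:26987041-26987953) lay past the end of the canonical transcript, inside longer CDK8 gene models, and held 2 E-box words. Its ranks were 57.5 and 70.4 in PBS and 34.3 and 42.6 in SCF libraries. Pileups were 23 and 42 fragments in PBS and 12 and 14 in SCF libraries. Both SCF libraries lay below both PBS libraries, with a gap of 14.9 points. Its 4 summits were spread over 251 bp. When peaks were joined by summits within 150 bp instead of shared bases, it no longer counted as 1 site and the loss was not called. The last site, at +181.41 kb, had ranks of 54.8, 78.5, 59.7 and 56.0, and PBS replicate 2 alone stood above the rest.

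**Figure D1:**
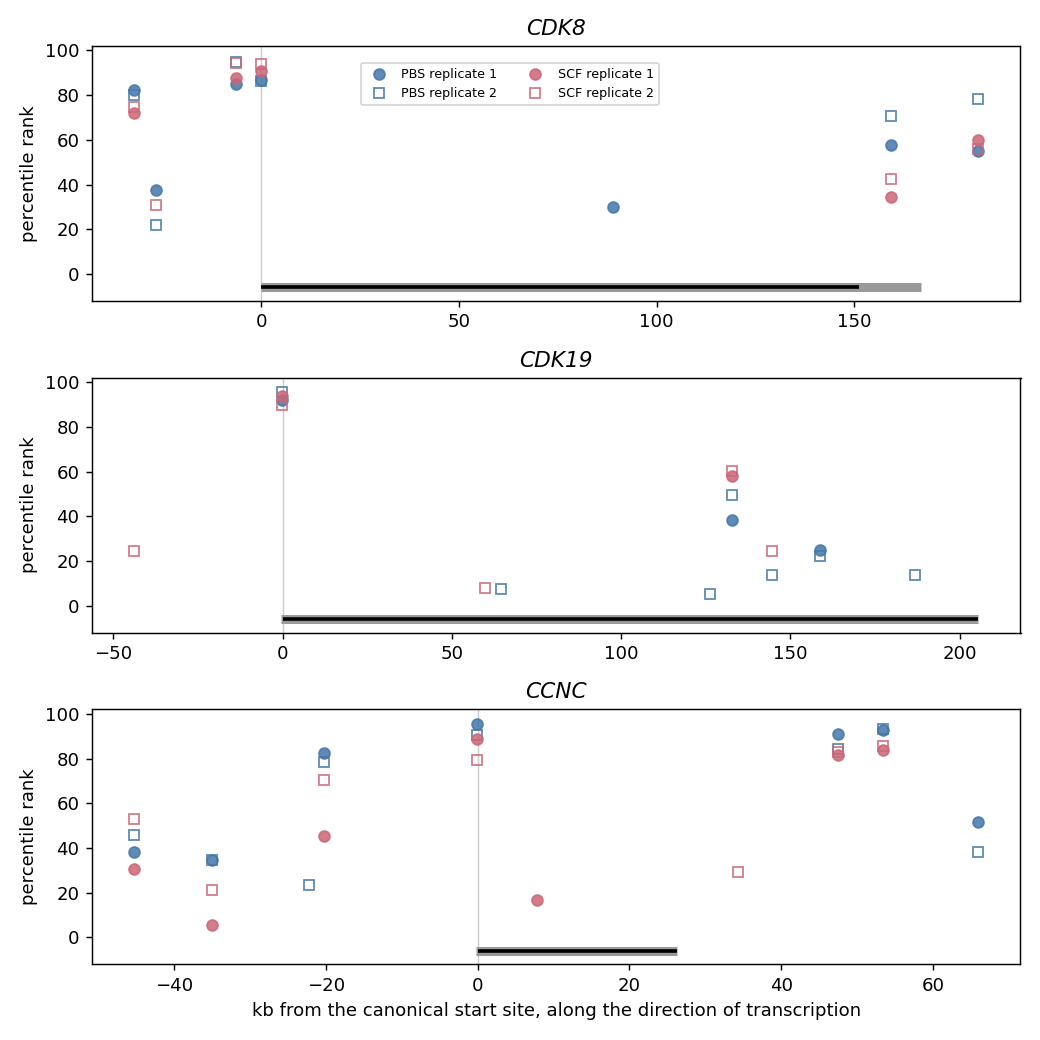
Percentile rank of fold enrichment of each site at CDK8, CDK19 and CCNC against its distance in kb from the canonical start site, by library (blue, PBS; red, SCF; filled circles, replicate 1; open squares, replicate 2). Below, the grey bar is the annotated gene body and the black line the canonical transcript. CDK8 has no listed site between its promoter and +88.88 kb, and at +159.41 kb both SCF libraries lie below both PBS libraries.

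CDK19 (ENSG00000155111.15_13, chromosome 6, 110931181 to 111137161, minus strand) is the other kinase of the module. Its promoter had the largest pileups of the 7 genes, with 269 and 400 fragments in PBS and 272 and 224 in SCF libraries. Over the library background these were 257, 267, 288 and 253. Ranks by pileup were 99.6 to 99.8. Ranks by fold enrichment were 91.9, 95.6, 93.8 and 89.9, at a local background of 16.2 to 25.2 fragments. Neither measure separated the treatments. The promoter site held the EGR word on the reverse strand, 48 bp from the summit, in the stretch tgtaactagcCCCACGCagagagtatg.
Within the gene, the site at +132.73 kb in intron 2 came nearest to a gain with SCF. Its ranks were 38.1 and 49.7 in PBS and 57.9 and 60.4 in SCF libraries. Pileups were 15, 19, 18 and 17 fragments, and the 4 summits were spread over 307 bp. The mean was 43.9 ± 8.19 with PBS against 59.1 ± 1.74 with SCF (SD, n = 2). The gap of 8.18 points fell short of the 10 points required. It passed them when each list was reduced to the same number of peaks, and without PBS replicate 2 or without SCF replicate 1. The site at +158.71 kb in intron 4 was listed in both PBS libraries (ranks 25.1 and 22.1, 11 fragments in each) and in neither SCF library. The remaining 6 sites had ranks of at most 24.3 and at most 9 fragments, and each was listed in 1 or 2 libraries. Among them, the site at +186.92 kb in intron 6 held an AP-1 word 41 bp from the summit and was listed in PBS replicate 2 alone, with 9 fragments.

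CCNC (ENSG00000112237.13_11, chromosome 6, 99990263 to 100016701, minus strand) codes for cyclin C, the subunit without which the kinase is inactive. Its promoter ranks were 95.4 and 90.7 in PBS and 88.9 and 79.4 in SCF libraries, with pileups of 71, 85, 57 and 42 fragments. Both SCF ranks lay below both PBS ranks, by 1.88 points at the nearest. Over the library background, the pileup was 67.9, 56.7, 60.4 and 47.5, and the treatments overlapped.
Both SCF ranks lay below both PBS ranks at 5 of the 6 CCNC sites listed in all 4 libraries, the promoter included, against 19.3% of all such regions. These sites are neighbors in the same libraries and are not independent. At the promoter of USP45, which codes for a deubiquitinase (+53.36 kb), ranks were 92.9 and 93.1 in PBS and 84.0 and 85.5 in SCF libraries. A second site near start sites of TSTD3 and USP45 (+47.44 kb) had 90.7 and 84.2 in PBS and 81.7 and 83.0 in SCF libraries. At −20.26 kb, at an exon of TSTD3, ranks were 82.6 and 78.3 in PBS and 45.4 and 70.4 in SCF libraries. Pileups there were 47, 51, 19 and 26 fragments, and the SCF replicates differed by more than the 7.90 points between the groups. Its 4 summits were spread over 306 bp. The site passed 10 points by pileup rank, with a −log10 q of at least 5, and without PBS replicate 2 or SCF replicate 2. The site at −35.03 kb (chr6:100050883-100052129, between genes) had ranks of 34.8 in both PBS libraries and of 5.69 and 21.0 in the SCF libraries, a gap of 13.8 points. Its pileups were 21, 27, 12 and 17 fragments, and its 4 summits were spread over 292 bp. Over the library background, the pileup was 20.1, 18.0, 12.7 and 19.2, and the treatments overlapped. Ranks by −log10 p or by pileup did not bring this site past 10 points. The sixth site, at −45.19 kb near PRDM13, had ranks of 38.2, 45.6, 30.7 and 53.1, and the treatments overlapped. A site at +65.94 kb in USP45 was listed in both PBS libraries (ranks 51.6 and 38.0, 14 and 13 fragments) and in neither SCF library. The AP-1 word of this locus lay at +34.31 kb in TSTD3, 7 bp from the summit, in a site listed in SCF replicate 2 alone with a rank of 29.2 and 10 fragments. The other 2 sites, at +7.78 kb in intron 4 of CCNC and at −22.26 kb, were listed in 1 library each, with ranks of 16.9 and 23.3.

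MED12 (ENSG00000184634.17_16, chromosome X, 70338393 to 70363953, plus strand) codes for the subunit that activates the kinase. Its promoter ranks were 59.8 and 78.8 in PBS and 64.4 and 86.0 in SCF libraries, with 16, 38, 22 and 30 fragments. Both replicate 2 libraries exceeded both replicate 1 libraries, and the treatments overlapped. The strongest distal site of this locus, at +63.59 kb (chrX:70401486-70402364, between genes), held the AP-1 word 73 bp from the summit. Its ranks were 75.7, 90.5, 60.3 and 81.5, with 32, 52, 22 and 30 fragments. The treatments overlapped. The EGR word lay 61 bp from the summit of the site at +27.70 kb, at the start of NLGN3, in the stretch tgtgcatgtgGCGTGGGtgtgcgtgtg. That site was listed in 3 libraries, with ranks of 37.6 and 57.5 in PBS replicates 1 and 2 and 46.7 in SCF replicate 2. A site at the promoter of FOXO4 (−22.35 kb) had ranks of 62.1, 48.6, 55.1 and 35.3, and its 4 summits were spread over 585 bp. The other 5 sites, at +13.11 kb and +10.78 kb in the gene and at −10.56, −12.20 and −15.01 kb (the last 2 within 1 kb of a start site of CXorf65), were listed in 1 to 3 libraries with ranks of 2.85 to 59.2.
MED12L (ENSG00000144893.13_11, chromosome 3, 150803073 to 151154860, plus strand) had its highest promoter peak at +1.23 kb, inside exon 2 of the canonical transcript and within 1 kb of another start site. It was listed in PBS replicate 2 (rank 28.7, 13 fragments), SCF replicate 1 (11.4, 8 fragments) and SCF replicate 2 (39.7, 10 fragments). No MED12L promoter peak was listed in PBS replicate 1, where the lowest listed pileup of any site was 6 fragments and higher background required more. An intronic site at +142.33 kb had ranks of 23.0 and 62.3 in PBS and 4.13 in SCF replicate 1. Of the other 2 sites, that at +0.01 kb was listed in PBS replicate 2 alone (rank 12.0) and that at +330.56 kb in SCF replicate 2 alone (7.92).

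MED13 (ENSG00000108510.10_9, chromosome 17, 60019966 to 60142639, minus strand) codes for the subunit that links the module to core Mediator. Its promoter ranks were 78.0 and 78.3 in PBS and 92.3 and 83.5 in SCF libraries, with 91, 114, 93 and 80 fragments. Both SCF ranks exceeded both PBS ranks, by 5.19 points, and by more than 10 without SCF replicate 2. Over the background, without centering on the library median, the pileup was 87.0, 76.0, 98.6 and 90.4, with both SCF libraries above both PBS libraries. After median centering, its log2 change with SCF was 0.053. The site at +98.81 kb lay in exon 19 (ranks 80.4, 67.9, 59.0 and 75.6). The site at +137.40 kb is the promoter of INTS2, a subunit of the Integrator complex (89.2, 80.6, 81.2 and 82.2). A weaker site at −44.46 kb had ranks of 42.1, 43.1, 38.2 and 45.7.
MED13L (ENSG00000123066.9_17, chromosome 12, 116395710 to 116715498, minus strand) had promoter ranks of 87.3, 81.2, 76.4 and 93.0, with 92, 124, 69 and 83 fragments. SCF replicate 1 was the lowest and SCF replicate 2 the highest. A second peak at +1.35 kb, in intron 1, had ranks of 7.44, 9.65, 2.71 and 5.90 although its pileups were 27, 40, 21 and 21 fragments, at a local background of 5.01 to 9.93 fragments. The site at +80.45 kb in intron 2 had ranks of 76.3, 85.2, 85.8 and 82.8 and pileups of 40, 61, 42 and 40. This site and that at −6.33 kb of CDK8 were the 2 member sites of highest mean rank away from promoters. The other 12 MED13L sites, 11 of them inside the gene, had ranks of 1.90 to 61.3, and 2 of them were listed in all 4 libraries.

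The promoters of the paralogues were compared within each library. CDK8 was ranked lower than CDK19 by 3.33 points on average, a difference smaller than its own spread (mean −3.33 ± 5.61, SD, n = 4, two-sided exact permutation test over sign flips p = 0.375, Benjamini-Hochberg adjusted over 3 pairs p = 0.562), and CDK8 was higher in 1 of 4 libraries. The difference was larger by other ranks. It was −7.78 ± 1.58 points by −log10 p and −8.41 ± 1.43 points by pileup (SD, n = 4), with CDK8 higher in 0 of 4 libraries and an exact permutation p of 0.125 for both (adjusted p = 0.375), the smallest that 4 libraries allow. MED13 and MED13L differed by −1.46 ± 12.0 points (SD, n = 4, exact permutation p = 0.875, adjusted p = 0.875). MED12 was ranked above MED12L by 49.8 ± 3.33 points (SD, n = 3) in 3 of 3 libraries that listed both. Its exact permutation p of 0.25 (adjusted p = 0.562) is the smallest that 3 libraries allow, against 0.125 for 4.

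**Figure D2:**
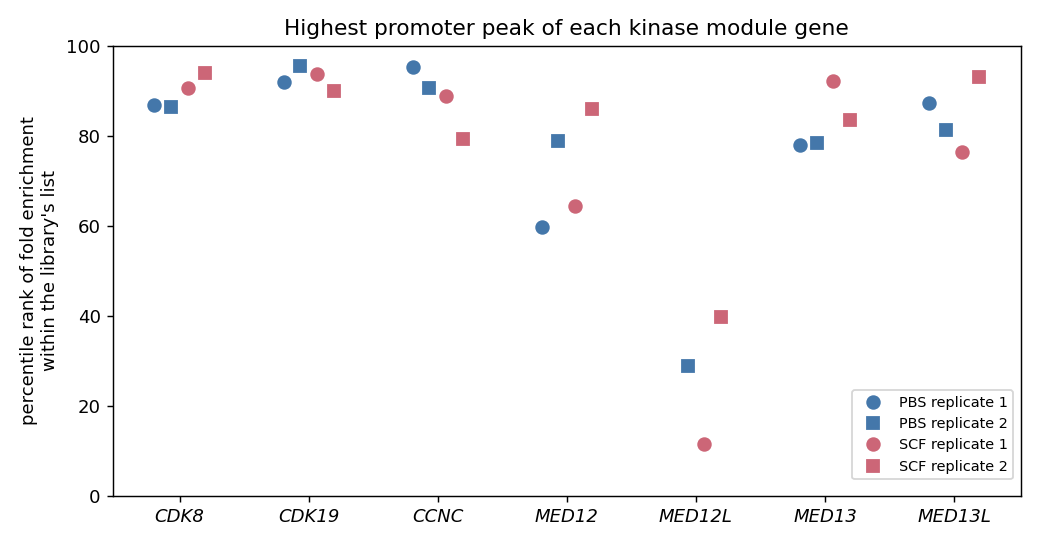
Percentile rank of fold enrichment of the highest promoter peak (summit within 1 kb of a start site) of each gene, 1 point per library (blue, PBS; red, SCF; circles, replicate 1; squares, replicate 2). MED12L has no point for PBS replicate 1, and its 3 points lie between 11.4 and 39.7, below all those of the other genes.

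The promoters were then set beside lists of related genes. Of the 7 module promoters, 6 were listed in all 4 libraries, against 59.7% of 20136 protein-coding genes, and their median mean rank was 86.5, against 78.4 for the coding promoters listed in all 4. All 26 promoters of core Mediator subunits were listed in all 4 libraries, with a median rank of 86.3. So were the 9 promoters of other transcriptional kinases and their cyclins (CDK7, CDK9, CDK12, CDK13 and partners), with a median of 85.8. Both SCF ranks lay above both PBS ranks at 2 of 6 module promoters (CDK8 and MED13), at 0 of 26 core Mediator promoters and at 4 of 9 other kinase promoters (CDK9, CDK13, CCNK and CCNT1), against 14.3% of coding promoters. Both SCF ranks lay below both PBS ranks at 1 of 6 (CCNC), at 7 of 26 and at 1 of 9, against 21.1%. MED22, a core subunit of the head of Mediator, had the largest difference of these, with ranks of 76.5 and 80.0 in PBS and 51.7 and 61.1 in SCF libraries. The median SCF minus PBS difference in promoter rank was 3.09 points for the module, −1.90 for core Mediator and 1.06 for the other kinases, against −0.728 over coding promoters. With 6 genes in the module these are descriptions of the lists, not tests.

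**Figure D3:**
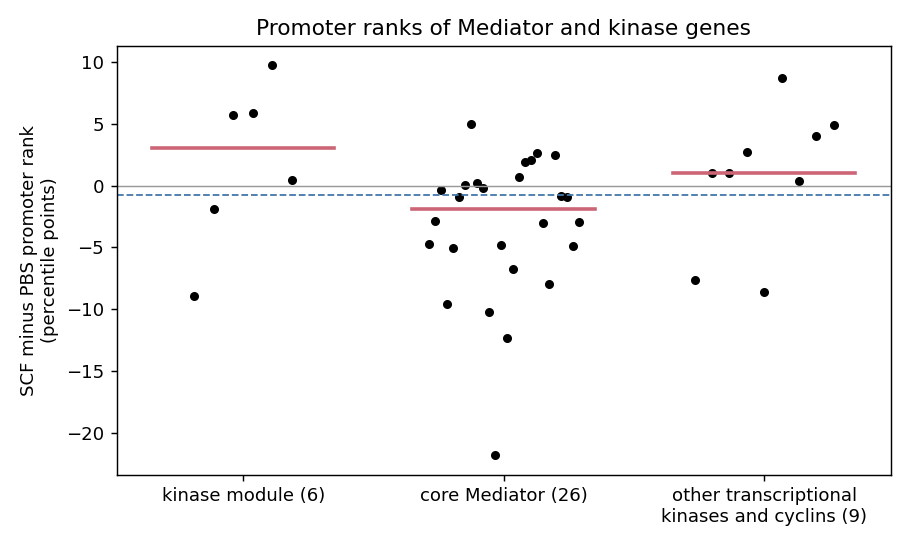
SCF minus PBS difference in mean promoter rank, in percentile points, for each gene of the kinase module, core Mediator and the other transcriptional kinases and cyclins whose promoter was listed in all 4 libraries (points), with the median of each list (red line) and of all coding promoters (dashed line, −0.728). Values of the module run from −8.94 (CCNC) to 9.75 (MED13), and MED22 of core Mediator is lowest at −21.8.

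Few member sites passed the fixed rules for a difference between treatments. None was listed with SCF alone, that is, by both SCF libraries but no PBS library, as were 1.65% of all regions. The reverse held for 2 of 58 sites (CDK19 +158.71 kb and CCNC +65.94 kb), against 2.37% of all regions. Without PBS replicate 1, which leaves the deepest library as the only PBS library, the count was 13 of 57, against 11.6% of all regions. No site of the 25 listed in all 4 libraries gained at least 10 points of rank with SCF, against 2.55% of such regions, and 2 lost at least 10 points (CDK8 +159.41 kb and CCNC −35.03 kb), against 3.04%. The gaps of these 2 were 14.9 and 13.8 points, and those of the next 2 below the limit were 7.90 (CCNC −20.26 kb) and 7.35 (CCNC +53.36 kb). Without a minimum gap, both SCF ranks lay above both PBS ranks at 3 of 25 sites, against 16% of regions, and below them at 9 of 25, against 19.3%. Of these 9, 5 were at CCNC, 2 at CDK8 and 2 at MED13L. The median SCF minus PBS difference in rank was −4.24 points over the 25 sites (from −25.5 to 15.2), against −0.527 over all 22398 regions. Sites of a locus are neighbors in the same libraries and are not independent replicates.

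**Figure D4:**
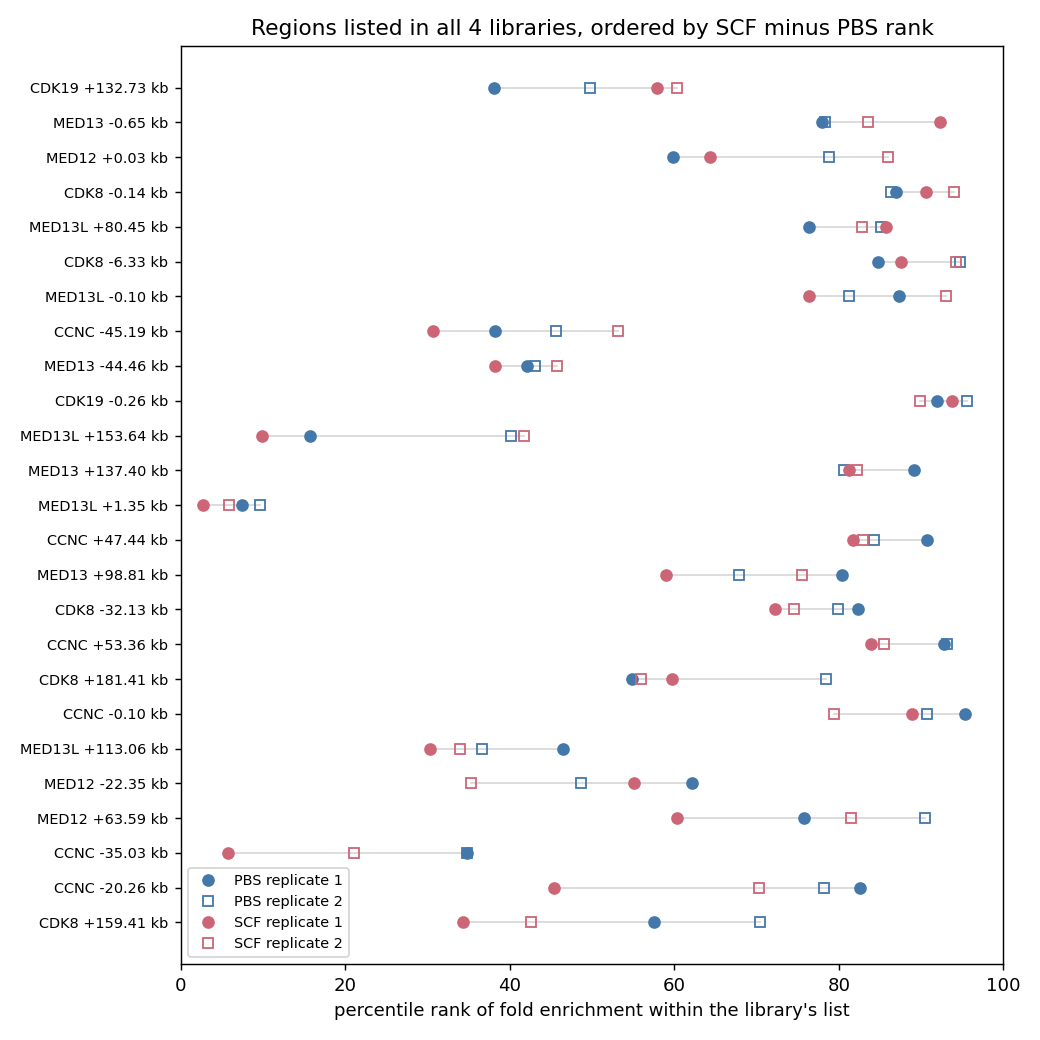
Percentile rank of fold enrichment in each library for the 25 member sites listed in all 4, named by gene and distance in kb from the start site and ordered by the SCF minus PBS difference of mean ranks (blue, PBS; red, SCF; filled circles, replicate 1; open squares, replicate 2). CDK19 +132.73 kb is at the top (15.2 points) and CDK8 +159.41 kb at the bottom (−25.5 points).

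The test across all 22398 regions used log2 fold enrichment in limma. At an adjusted p under 0.05 it called 0% of regions, none of them a member site, and the lowest adjusted p of the module was 0.660. With 2 libraries per treatment, this does not show that no region changed. The study used another measure, MAnorm with a fold-change cutoff, and reported sites of increased and of decreased accessibility after SCF. At an unadjusted limma p under 0.05 there were 1535 regions (6.85%) and 2 of the 25 member sites. These were CCNC −20.26 kb, which was lower with SCF by a log2 change of −0.51 (SE 0.18, limma adjusted p = 0.660), and CDK8 +159.41 kb, at −0.54 (SE 0.21, limma adjusted p = 0.676). The former was −0.29 without SCF replicate 1 and −0.74 without SCF replicate 2, and the latter ran from −0.66 to −0.43 with a library left out. By median-centered pileup over background they were −0.81 and −0.91. The log2 change was 0.37 at CDK19 +132.73 kb (95% interval −0.07 to 0.81), 0.16 at the CDK8 promoter (−0.09 to 0.42) and 0.25 at the MED13 promoter (−0.06 to 0.55). It was −0.25 at the CCNC promoter (−0.54 to 0.04), −0.07 at the CDK19 promoter (−0.32 to 0.18), 0.15 at the MED12 promoter (−0.25 to 0.54) and 0.03 at the MED13L promoter (−0.28 to 0.34). Each of these 7 intervals includes 0. The MED13 value moved to 0.076 without SCF replicate 1 and to 0.40 without SCF replicate 2. It was 0.053 by median-centered pileup over background. The CCNC promoter moved to −0.42 and −0.10 without the same libraries, and to −0.16 without PBS replicate 1.

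**Figure D5:**
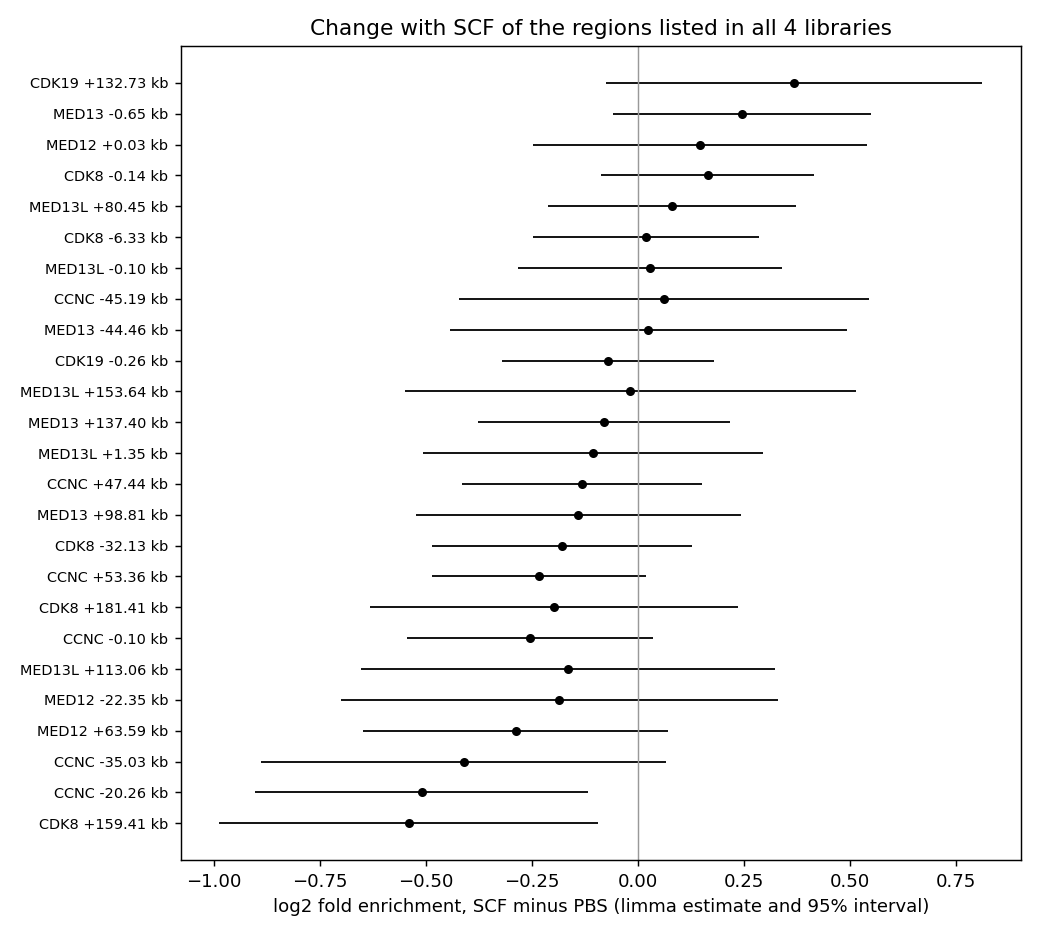
Estimated log2 fold enrichment in SCF minus PBS libraries (points) with its 95% interval from limma (bars) for the 25 member sites listed in all 4 libraries, in the order of the rank plot. The intervals of CDK8 +159.41 kb and CCNC −20.26 kb lie below 0, and no site passed the adjusted threshold.

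The words were counted for signal-responsive and erythroid factors. The AP-1 word lay within 100 bp of the summit in 3 of 58 sites (5.17%), against 8.43% of all regions, and the EGR word in 2 (3.45%, against 3.80%). The GATA word was found in 14 (24.1%, against 25.4%), the E-box word in 24 (41.4%, against 42.8%) and the cAMP response element in 0 (against 0.682%). Of the 3 AP-1 sites printed above, that of MED12 was listed in all 4 libraries, that of CDK19 in PBS replicate 2 alone and that of CCNC in SCF replicate 2 alone. No site of CDK8 held the AP-1 or the EGR word. A word in the sequence is a match of letters and does not show that a factor was bound.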

How the data were processed

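The 4 sgControl peak lists were analysed, with groups and replicate numbers from the labels. Peak names inside both PBS lists carry other replicate numbers than these labels. The authors aligned paired-end ATAC-seq reads and called peaks for each library with the ENCODE ATAC-seq pipeline. The submitters' processing notes name bcl2fastq, Bowtie2, SAMtools and hg38, while the headers of the deposited lists name hg19, which was used. The caller's settings are not given in the sources used here. The deposited lists hold a fold enrichment (a ratio of pileup to local background), the −log10 of p-values and q-values, and a score that was not used. The highest q-values were 0.0478 to 0.0497 in the 4 deposited lists.

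The members and lists were chosen with earlier results of these data known. Peaks sharing at least 1 bp were merged, and the peak of highest fold enrichment stood for a region in each library. Summit pileups were recovered as the whole numbers that give the fold enrichment (with 1 added to pileup and background) and the Poisson −log10 p. They did so within a relative error of 0.0001 for 100% of peaks. Regions called only with one treatment were listed in both of its libraries and in neither of the other. A rank gain or loss needed both ranks of one treatment at least 10 points beyond both of the other. Regions listed in all 4 libraries were tested by limma (3.58.1, R 4.3.3) on median-centered log2 fold enrichment, computed here from the deposited ratio, with empirical Bayes trend and Benjamini-Hochberg adjustment. The script was tested on simulated data. Genes came from GENCODE release 44 on GRCh37, and sequences from GRCh37. Sites named were the promoters, those in the first intron of CDK8, those past a rule, those highest away from promoters and those with the AP-1 or EGR word, with others of the 58 named after their values were seen. Alternatives left out each library, equalized peak numbers, raised the q threshold, joined by summits, narrowed the window, changed the ranking measure or the gap, and changed the limma normalization. Tools were Python 3.11.15, pandas 2.3.3, scipy 1.17.1 and matplotlib 3.10.9. The 4 sgEGR1 samples were not analysed here.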

Additional observations from a re-analysis of the deposited data

How the results depend on the processing

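The 2 sites that lost rank with SCF became 1 with narrower windows, against 3.04% of all regions. This was 1 of 16 sites within 25 kb and 1 of 11 in the gene body. The count was also 1 when ranks were taken by −log10 p, against 2.17% (CDK8 +159.41 kb in each). It was 0 when peaks were joined by summits within 150 bp (against 2.85%) and 0 when 20 points were required (against 0.545%). When only 5 points were required it was 5, against 7.73%. It was 3 with a −log10 q of at least 5 (CDK8 +159.41 kb, CCNC +53.36 kb and CCNC −20.26 kb) and 2 by pileup rank (CDK8 +159.41 kb and CCNC −20.26 kb). Leaving out each library in turn gave 3 to 5 of 25 to 28 member sites, against 7.19 to 14.4% of all regions. CDK8 +159.41 kb and CCNC −35.03 kb were among them each time, but the rule fixes this in advance. With ranks unchanged, the gap between treatments cannot narrow when a library is removed, so their return is no sign of stability. The count of sites gaining rank, 0, became 1 with the same number of peaks per library (CDK19 +132.73 kb), against 3.25% of all regions. It became 2 when 5 points were required (against 6.04%). With a library left out it was 0 to 1 of 25 to 28 member sites (against 5.94 to 11.2%). It was 1 without PBS replicate 2 or SCF replicate 1 (CDK19 +132.73 kb) and 1 without SCF replicate 2 (the MED13 promoter). The 2 sites listed only with PBS became 1 of 39 with a −log10 q of at least 5, against 2.86% of all regions. They also became 1 of 45 with a 25-kb window and 1 of 34 in the gene body only, against 2.37%. The count was 3 to 13 (without PBS replicate 1) when a library was left out, where 4.61 to 11.6% of all regions met the condition. Sites listed only with SCF, 0 of 58, became 2 of 71 with summits within 150 bp, against 2.31% of all regions. The 2 were MED13L +105.22 kb and part of MED12 −22.35 kb. Sites listed only with SCF numbered 0 to 7 (7 of 56 without SCF replicate 1) with a library left out, against 3.11 to 11.1% of all regions. The cause of these moves was not tested, except that a group of 1 library is a looser condition.

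In limma, 0 regions passed in each setting with 4 libraries and 0 to 11 when one was left out, and 0 member sites passed in any of the 9 settings. Replicate numbers did not pair the libraries, with a correlation of 0.0121 between the deviations of same-numbered libraries, and the fit with the replicate block called 0 regions. Of 87 alternative log2 changes at 10 sites, 80 kept their direction. Median-centered pileup over background gave −0.060 at the CDK8 promoter and −0.20 at that of MED13L. With a library left out, promoter values ran from −0.15 (without SCF replicate 2) to 0.19 for MED13L, from −0.060 (without SCF replicate 2) to 0.34 for MED12, which was also −0.054 without PBS replicate 1, and from −0.18 to 0.026 (without SCF replicate 2) for CDK19. That of MED13L was −0.076 without PBS replicate 2. The difference between MED13 and MED13L turned to 0.464 by −log10 p and 1.02 by pileup. With start sites within 500 bp, MED13 and MED13L could not be compared. Recovered depth ran from 0.843 to 1.42 times that of PBS replicate 1 and limits which weak sites were listed. It was lower in both SCF libraries than in both PBS libraries.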
